A study of Mus musculus with 32 samples.

Results

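The cyclic nucleotide phosphodiesterases examined here were *Pde1a*, *Pde1b*, *Pde1c*, *Pde2a*, *Pde4a*, *Pde4b*, *Pde4d*, *Pde7b*, *Pde8b* and *Pde10a*. These 10 genes were taken by name from the 23420 genes in the count tables, and all 10 were among the 15589 genes with enough reads to be tested. RNA was sequenced from striatal punches of 8 naïve C57BL/6J (B6) mice and 8 naïve Line 4a congenics (B6.D2), littermates that carried a DBA/2J-derived segment on 1 copy of chromosome 11 in an otherwise B6 genome. Both genotypes were about 50 days old by the labels, no drug was given, and punches of 3 mm from the left and right striatum were pooled within a mouse, so each library held the RNA of 1 animal. The study's methods give an age range that starts there and a slightly smaller punch, and state that both sexes were used, whereas the labels give neither sex nor home cage. None of the 10 genes lies on chromosome 11.

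Each library was run on lanes 5 and 6 or on lanes 7 and 8, with 4 mice of each genotype on either pair of lanes, and the reads assigned to genes numbered from 19032826 to 33748353 in a mouse. Markers of striatal projection neurons were abundant in every library, with a summed level of 6194 to 9056 CPM (gene counts scaled to a common library size) in B6 and 6774 to 8435 CPM in Line 4a over 17 genes, none of them at 0. A pair of libraries stood apart from the other 14. Shares here are of the total of all rows in the count files of a mouse. In Line 4a mouse 1, 27.3% was in the row for more than 1 alignment and 10.2% in the row for reads outside annotated exons. In B6 mouse 8 the latter share was 11.3%, whereas the other 14 mice had 19.5% to 21.4% and 14.5% to 15.9%. Results that rest on these mice are given with and without them. In tissue punches, fewer cells of a type and less RNA per cell cannot be told apart.

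Phosphodiesterases break down cAMP and cGMP, the second messengers that adenylyl and guanylyl cyclases make after a receptor is activated. In striatal projection neurons, dopamine acting at D1-type receptors raises cAMP and at D2-type receptors lowers it, and the phosphodiesterases set how long and how far each signal spreads. The family members differ in what they degrade and in what switches them on. PDE1 enzymes are activated by calcium and calmodulin, PDE2A is activated by cGMP, PDE4, PDE7B and PDE8B degrade cAMP, and PDE10A, which degrades both messengers, is known for its enrichment in striatal projection neurons.

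Transcription of some cAMP pathway genes is itself driven by cAMP through the transcription factor CREB, which binds the palindrome TGACGTCA or its shorter form TGACG. The annotated RefSeq start sites (GRCm38.p6) of the 10 genes gave 31 windows of the 250 bases upstream. They ran from 1 window for *Pde4d* and *Pde7b* to 5 for *Pde2a* and *Pde8b*. The palindrome was in 0 of these 31 windows and in 1.55% of the 32851 windows of all genes. The shorter form, searched on both strands and contained in the palindrome, was in 3 of the 31 windows, belonging to *Pde1a*, *Pde4a* and *Pde4b*, and in 17.8% of all windows. The 3 matches are shown with the bases around them so that their setting can be read. Each is printed 5′ to 3′ on the strand of the gene, with the 5-base match in capitals, and in each the match is the reverse complement of the form given above.
Pde1a, minus strand, chr2:80039051-80039080: gtaacttcagccCGTCAttcctcagtaatt
Pde4a, plus strand, chr9:21184039-21184068: ggcacagctcgaCGTCAggctggggaggag
Pde4b, plus strand, chr4:102421509-102421538: gatttggctgcaCGTCAattttctcatctg
The match starts 166, 50 and 34 bases upstream of an annotated start of *Pde1a*, *Pde4a* and *Pde4b*, in that order. Each of these starts is an alternative one that lies inside the gene, not at its outer end. The matches are of letters in 1 window per gene, and the remaining windows of the same 3 genes held none.

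The members covered a wide range of levels. Per kb of annotated exon, *Pde1b* (chr15:103503034-103530056), the calcium-stimulated form known from striatal neurons, was highest at 340 ± 35.9 CPM per kb (SD, n = 16 mice). *Pde2a* (chr7:101421691-101512829) followed at 201 ± 12.6 CPM per kb, and *Pde10a* (chr17:8525187-8986648) at 120 ± 18.1 CPM per kb. These 3 genes were far above the rest, and in each of the 16 mice the order per kb was the same. Without division by length the order differed, with means of 1512 CPM for *Pde10a*, 1453 CPM for *Pde1b* and 935 CPM for *Pde2a*.

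Next came a group of cAMP-degrading enzymes at similar levels. *Pde7b* (chr10:20397052-20725078) had 27.0 ± 4.93 CPM per kb, and *Pde8b* (chr13:95024105-95250401), which encodes a high-affinity enzyme for cAMP, had 19.7 ± 1.61 CPM per kb. *Pde4b* (chr4:102087332-102607275) had 16.3 ± 0.916 CPM per kb and *Pde4a* (chr9:21165700-21213248) had 14.8 ± 0.983 CPM per kb. The step from *Pde4b* to *Pde4a* was present in 14 of 16 mice and the step from *Pde4a* to *Pde1a* in 12 of 16. The order of these neighbours was therefore that of most mice but not of all. *Pde7b* was above *Pde8b* in 15 of 16 mice, the exception being Line 4a mouse 1. *Pde1a* (chr2:79834453-80196522) had 12.2 ± 2.15 CPM per kb, *Pde4d* (chr13:108654177-109955969) 4.52 ± 0.350 CPM per kb and *Pde1c* (chr6:56069798-56652510) 2.34 ± 0.269 CPM per kb. The last of these steps were present in all 16 mice. Exon lengths were the union of all exons of a gene in the NCBIM37 annotation, not the length of a transcript, and the order per kb depends on them. Positions are GRCm38.p6, and no annotated exon of any member overlapped an exon of another gene.

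**Figure D1:**
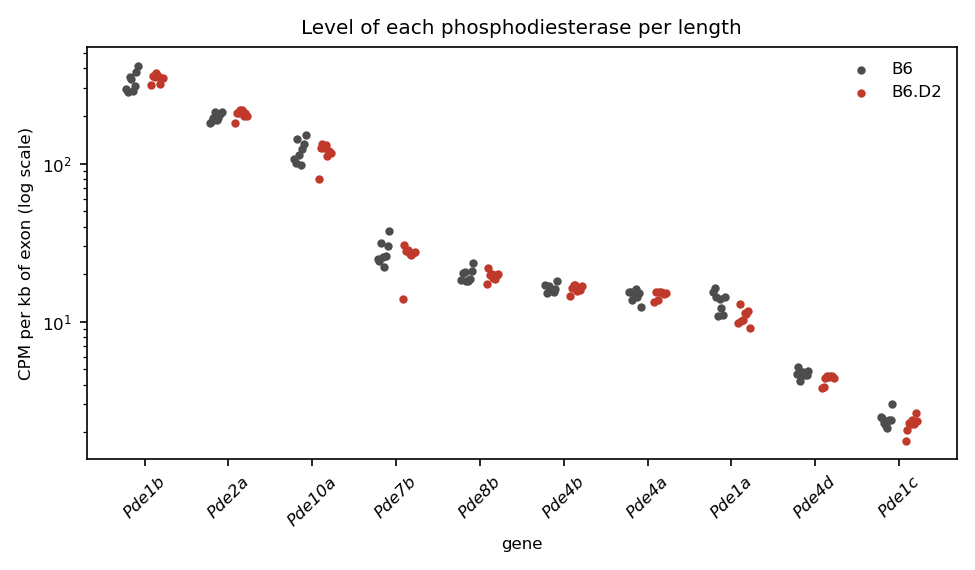
Level of each phosphodiesterase in every mouse, as CPM per kb of exon on a log axis, with genes in order of their mean and points for B6 (grey) and Line 4a (B6.D2, red) mice. *Pde1b*, *Pde2a* and *Pde10a* lie above 80 CPM per kb in all mice, and the low *Pde7b* and *Pde10a* points among the congenics are both Line 4a mouse 1.

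The members also differed in how much they varied between animals. The coefficient of variation over 16 mice was smallest for *Pde4b* at 5.63%, *Pde2a* at 6.26% and *Pde4a* at 6.65%, and largest for *Pde7b* at 18.3%, *Pde1a* at 17.6% and *Pde10a* at 15.1%. These 3 were at 9.25%, 17.5% and 11.1% without Line 4a mouse 1 and B6 mouse 8, so that *Pde1a* was the most variable. The spread of *Pde1b* was 14.2% among B6 mice and 5.81% among Line 4a mice. For *Pde7b*, the corresponding values were 17.8% and 19.5%, and they were 12.3% without B6 mouse 8 and 4.92% without Line 4a mouse 1 (7 mice each).

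The genotype comparison asked whether striatal expression of these enzymes differed in mice carrying the D2-derived segment. *Pde1a* and *Pde4d* had lower levels in Line 4a at an unadjusted p under 0.05, and the other 8 members, among them the abundant *Pde10a*, *Pde1b* and *Pde2a*, did not pass that threshold. Thus 2 of 10 members were below it, both in the lower direction, against 5.14% of all genes that were lower and 4.86% that were higher at that threshold. No member passed an FDR of 20%, which 0.0192% of all genes did (edgeR's quasi-likelihood test with Benjamini-Hochberg adjustment). By DESeq2 and by edgeR's likelihood ratio test, the same 2 members were lower at an unadjusted p under 0.05, as were 4.53% and 4.80% of all genes. *Pde1a* alone passed an FDR of 20% in these 2 tests, which 1.52% and 1.19% of all genes did. Mean levels were lower in Line 4a for 7 of the 10 members and for 45.1% of all genes tested. The median log2 fold change was -0.03 over the members, against a median of 0.01 over all genes tested. Without Line 4a mouse 1 and B6 mouse 8, 3 members were under 0.05, the added one being *Pde2a* with a higher level in Line 4a, and 4 members had lower means. In that fit 7.32% of all genes were lower and 5.44% higher at the same threshold. No member separated the genotypes completely, which 0.0577% of all genes did.

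*Pde1a* encodes a calcium/calmodulin-stimulated enzyme that prefers cGMP. Its lowest, median and highest levels were 65.4, 85.0 and 99.1 CPM in the 8 B6 mice and 55.4, 64.5 and 78.2 CPM in the 8 Line 4a mice. Every congenic had less than the median B6 mouse, and 4 of the 8 had less than any B6 mouse, while the remaining 4 overlapped with the lower end of the B6 range. The mean was 81.7 ± 12.3 CPM in B6 and 65.3 ± 7.33 CPM in Line 4a (SD, n = 8 each). The log2 fold change was -0.33 ± 0.09 (SE), equivalent to 0.798 times the B6 level, with an unadjusted p of 0.00169 and an adjusted p of 0.331 by edgeR's quasi-likelihood test. An exact two-sided permutation test of the 8 against 8 mice on log2 CPM gave p = 0.00699. By lanes, the difference was -0.40 for lanes 5 and 6 and -0.25 for lanes 7 and 8, and it was -0.30 without Line 4a mouse 1 and B6 mouse 8. The adjusted p was 0.0976 by DESeq2 and 0.0987 by the likelihood ratio test, and it was 0.183, 0.184 and 0.145 in the quasi-likelihood test when B6 mouse 4, B6 mouse 7 or Line 4a mouse 2 was left out.

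Markers of cortical glutamatergic neurons moved with *Pde1a*. All 16 markers on this list were detected, 11 were lower in Line 4a at an unadjusted p under 0.05 and none was higher. The median log2 fold change of the list was -0.50, and the summed level was 872 to 1361 CPM in B6 and 640 to 1189 CPM in Line 4a. *Slc17a7*, the vesicular glutamate transporter of cortical neurons and the most abundant gene on the list, averaged 415 ± 81.9 CPM in B6 and 268 ± 82.2 CPM in Line 4a (SD, n = 8 each). When the mean standardized level of these markers in each mouse was added to the model as a covariate, the *Pde1a* difference was -0.12 (unadjusted p = 0.189, edgeR's quasi-likelihood test). The covariate itself differed between the genotypes, so the parts of genotype and of the markers cannot be told apart. Each of the 7 other marker lists, for glia, vessels, interneurons, ependyma and neighbouring regions, had 0 or 1 gene under an unadjusted p of 0.05 in the same test. The likelihood ratio test gave 2 oligodendrocyte genes, and without Line 4a mouse 1 and B6 mouse 8 there were 2 lower and 1 higher interneuron genes and 2 higher vessel genes. Mean levels were higher in Line 4a for 8 of 8 microglial and 10 of 11 oligodendrocyte markers, while 45.1% of all genes tested had lower means. The median log2 fold change was 0.082 for the microglial and 0.11 for the oligodendrocyte list. Without Line 4a mouse 1 and B6 mouse 8 these medians were 0.046 and 0.031.

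*Pde4d* encodes a cAMP-specific enzyme of the class inhibited by rolipram. It ranged from 58.9 to 72.0 CPM with a median of 64.9 in B6, and from 52.5 to 63.1 CPM with a median of 61.7 in Line 4a. Each congenic was again under the B6 median, but only mice 1 and 2 lay below the whole B6 range, at 52.5 and 53.3 CPM. The log2 fold change was -0.13 ± 0.05 (SE), 0.916 times the B6 level (unadjusted p = 0.0214, adjusted p = 0.445, edgeR's quasi-likelihood test). The exact permutation test gave p = 0.0145. The difference was -0.19 with the cortical covariate (unadjusted p = 0.00775) and -0.10 without Line 4a mouse 1 and B6 mouse 8 (unadjusted p = 0.0426). The difference was -0.18 for lanes 5 and 6 (unadjusted p = 0.0738) and -0.079 for lanes 7 and 8 (unadjusted p = 0.0988) in edgeR's quasi-likelihood test. The unadjusted p was 0.0510 with the second lane of each mouse alone and 0.0524 without B6 mouse 2.

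**Figure D2:**
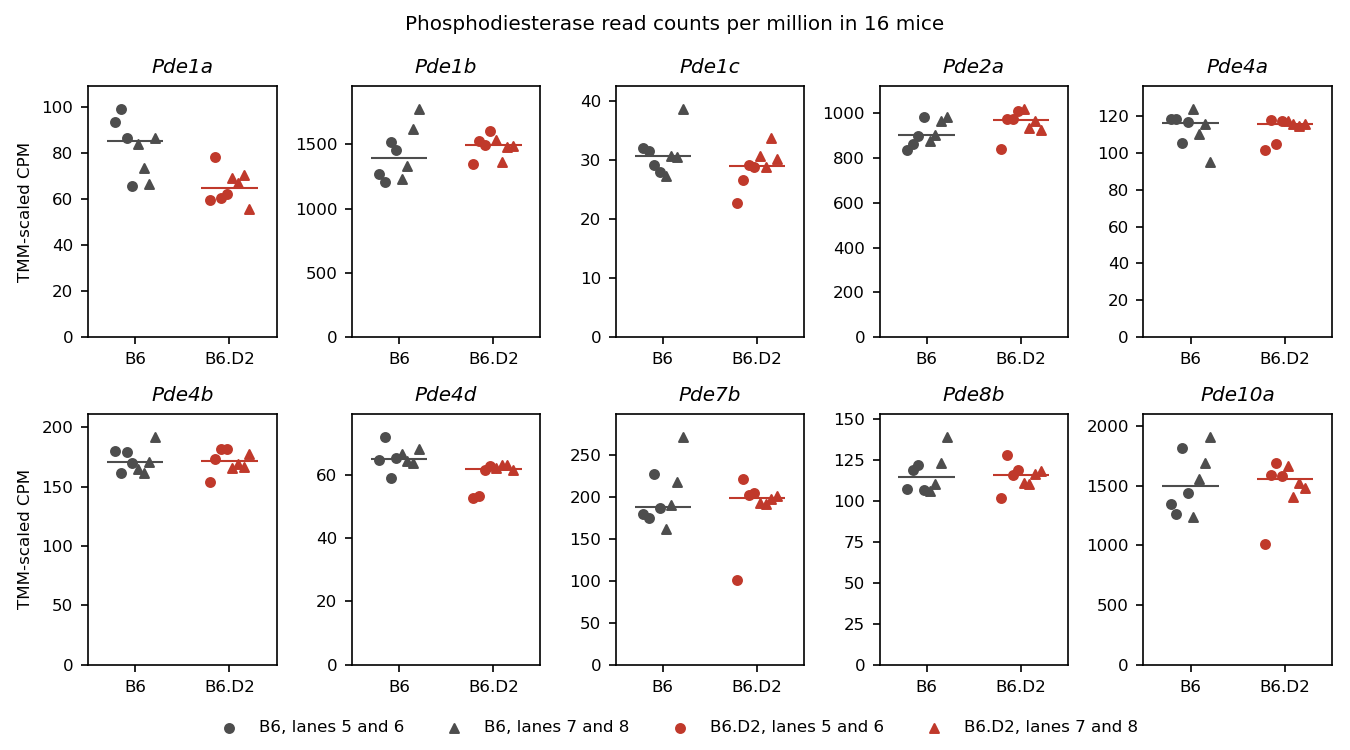
TMM-scaled CPM of the 10 phosphodiesterases in each of 8 B6 (grey) and 8 Line 4a (B6.D2, red) mice on axes that start at 0, with circles for libraries of lanes 5 and 6, triangles for lanes 7 and 8, and a line at the median of each genotype. All Line 4a points lie below the B6 median for *Pde1a* and *Pde4d*, and the genotypes overlap for every gene.

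The 2 other PDE4 genes did not separate the genotypes. *Pde4a* had a median of 116 CPM in both genotypes and a log2 fold change of 0.00 ± 0.05. *Pde4b*, whose product also degrades cAMP, had medians of 170.4 and 171 CPM, ranges of 161 to 192 CPM in B6 and 154 to 181 CPM in Line 4a, and a log2 fold change of -0.01 ± 0.05 (SE). The sign of both differences turned under several of the alternatives tried.

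Within the PDE1 group, the paralogs of *Pde1a* gave other values. *Pde1b* ranged from 1210 to 1775 CPM with a median of 1393 in B6, and from 1344 to 1601 CPM with a median of 1492 in Line 4a, so the congenics fell inside the B6 range. Its log2 fold change was 0.05 ± 0.08 (unadjusted p = 0.494, edgeR's quasi-likelihood test), with 0.13 for lanes 5 and 6 and -0.03 for lanes 7 and 8. The paper, by contrast, names *Pde1b* among the genes of a G protein-coupled receptor signaling pathway that it describes as downregulated in Line 4a. The paper's model held home cage, which could not be fitted here, and the part of this in the different result was not tested. *Pde1c*, the least abundant member per length, ranged from 27.3 to 38.7 CPM with a median of 30.6 in B6 and from 22.7 to 33.8 CPM with a median of 29.0 in Line 4a. Its log2 fold change was -0.10 ± 0.08 (unadjusted p = 0.193) and -0.01 without B6 mouse 8, which was the highest, and Line 4a mouse 1, which was the lowest.

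The ratio of *Pde1a* to *Pde1b* counts within a library does not depend on how libraries are scaled. Its log2 value lay between -4.61 and -3.61 in B6 and between -4.74 and -4.29 in Line 4a, with means of -4.13 ± 0.35 and -4.51 ± 0.17 (SD, n = 8 each). The ratio was under the B6 median in every congenic and under the whole B6 range in 3 of 8. The difference of -0.38 had p = 0.0157 by an exact two-sided permutation test. The ratio was chosen with earlier values of both genes known and contains the *Pde1a* counts. Its p-value is therefore no separate support for the *Pde1a* difference. The ratio differed by -0.53 within lanes 5 and 6 (exact permutation p = 0.0571) and by -0.23 within lanes 7 and 8 (exact permutation p = 0.257), with 4 mice of each genotype in each.

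The abundant members with known striatal enrichment and the cGMP-stimulated *Pde2a* showed no difference at this threshold. *Pde10a* ranged from 1237 to 1910 CPM with a median of 1496 in B6 and from 1013 to 1685 CPM with a median of 1552 in Line 4a. Line 4a mouse 1, at 1013 CPM, was well below the next congenic at 1408 CPM, and B6 mouse 8 was the highest of all 16. The log2 fold change was -0.04 ± 0.11 with all mice (unadjusted p = 0.731) and 0.08 without these 2 mice (unadjusted p = 0.325).

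*Pde7b* followed the same pattern across mice. It ranged from 162 to 271 CPM with a median of 188 in B6 and from 101 to 221 CPM with a median of 199 in Line 4a, and B6 mouse 8 and Line 4a mouse 1 were again the highest and the lowest. The other 7 congenics lay between 192 and 221 CPM, all above the B6 median. The log2 fold change was -0.09 ± 0.13 with all mice and 0.07 without these 2 mice. *Pde8b* had medians of 115 and 116 CPM in B6 and Line 4a and a log2 fold change of -0.02 ± 0.06. *Pde2a* had a median of 902 CPM (836 to 984) in B6 and 969 CPM (841 to 1020) in Line 4a, 7 of 8 congenics were above the B6 median, and the log2 fold change of 0.06 ± 0.05 (unadjusted p = 0.222) was 0.10 (unadjusted p = 0.0215) without these 2 mice.

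**Figure D3:**
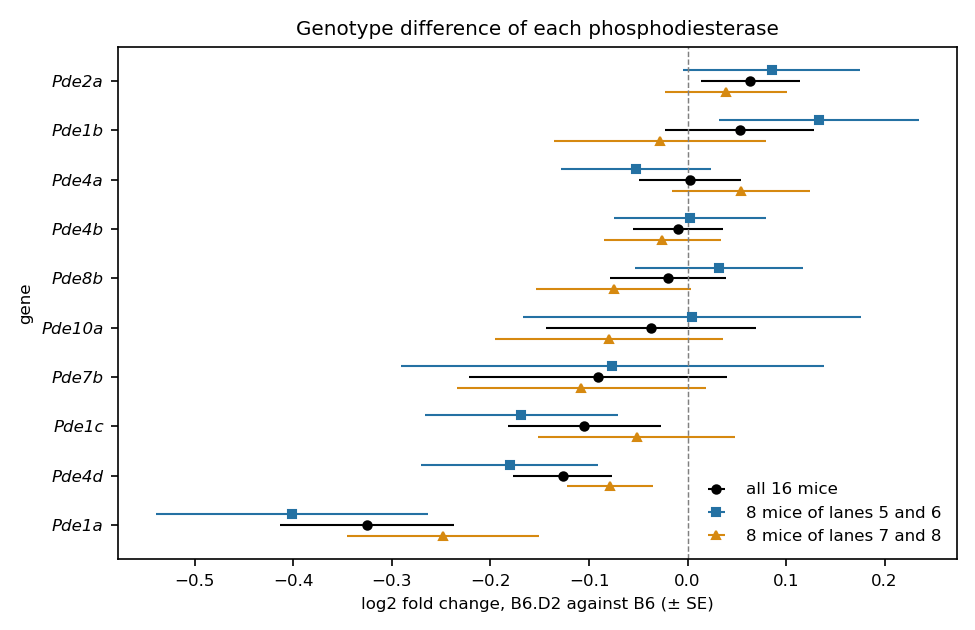
Log2 fold change of Line 4a (B6.D2) against B6 with its SE for each phosphodiesterase, in all 16 mice (black) and in the 8 mice of either pair of lanes (blue squares, orange triangles). *Pde1a* lies lowest in all 3 fits, at -0.33, -0.40 and -0.25, and *Pde10a*, *Pde8b*, *Pde4b*, *Pde4a* and *Pde1b* lie on both sides of 0 between the pairs of lanes.

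In edgeR's quasi-likelihood test of the interaction, 0 members had a genotype difference that differed between the lane pairs at an unadjusted p under 0.05, a threshold that 1.88% of all genes passed. The interaction was 0.16 ± 0.18 (SE) on the log2 scale for *Pde1a* (unadjusted p = 0.387) and 0.11 ± 0.10 for *Pde4d* (unadjusted p = 0.289).

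The neighbouring genes of the pathway were counted in the same fit, where 5.14% of all genes were lower and 4.86% higher at an unadjusted p under 0.05. A further 14 genes were listed by their phosphodiesterase symbols, whether or not they encode a catalytic subunit. Of these, 9 had enough reads to be tested, and 0 were under that threshold by the quasi-likelihood test, DESeq2 or the likelihood ratio test. The most abundant gene of this list was *Pde6d* at 36.8 CPM. Of the 10 adenylyl cyclases, which make cAMP, *Adcy2* alone was under 0.05 in the quasi-likelihood test, with 107 ± 6.36 CPM in B6 and 98.6 ± 6.79 CPM in Line 4a. Its log2 fold change of -0.12 was -0.03 with the cortical covariate (unadjusted p = 0.628). *Adcy5*, the main striatal cyclase and the most abundant of them at 1235 CPM, had a log2 fold change of -0.01 ± 0.10, which was 0.11 without Line 4a mouse 1 and B6 mouse 8 (unadjusted p = 0.0362, edgeR's quasi-likelihood test). Of 11 guanylyl cyclases and nitric oxide synthases tested, 0 were under 0.05 by any of the 3 tests, although 1 was lower and 1 higher without Line 4a mouse 1 and B6 mouse 8, and *Gucy1b3*, a subunit of the nitric oxide receptor, was the most abundant at 231 CPM.

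Among the 20 tested effectors of cAMP and cGMP, 4 were lower in Line 4a at an unadjusted p under 0.05 and 0 were higher. *Prkg1*, a cGMP-dependent kinase, had a log2 fold change of -0.30 (unadjusted p = 0.00903, edgeR's quasi-likelihood test). *Prkar1b* and *Prkacb*, a regulatory and a catalytic subunit of protein kinase A, had -0.16 (p = 0.00938) and -0.11 (p = 0.0295). The most abundant effector was *Rapgef4*, an exchange factor activated by cAMP, at 913 CPM and a log2 fold change of -0.07, or 0.016 without Line 4a mouse 1 and B6 mouse 8. None of the 4 stayed under 0.05 with the cortical covariate, under which *Prkg1* was at -0.28, *Prkacb* at -0.09 and *Prkar1b* at -0.04, and none passed an FDR of 20%. At an unadjusted p under 0.05, 3 effectors were lower and 1 was higher without Line 4a mouse 1 and B6 mouse 8, and *Prkacb*, at -0.07, was no longer among them (unadjusted p = 0.0538).

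Of 20 partners of phosphodiesterases, such as anchoring proteins and arrestins, 2 were lower and 1 was higher at an unadjusted p under 0.05. *Akap11* and *Akap6*, which encode anchors for protein kinase A, had log2 fold changes of -0.17 and -0.19, and *Arrb2*, which encodes an arrestin that binds PDE4 enzymes, had 0.13. Without Line 4a mouse 1 and B6 mouse 8 these were -0.08, -0.09 and 0.06, with unadjusted p of 0.106, 0.0605 and 0.125 (edgeR's quasi-likelihood test), and 2 other partners were then higher. With the cortical covariate they were -0.14, -0.15 and 0.098, with unadjusted p of 0.190, 0.207 and 0.209. Adjusted p-values of all genes on the 5 pathway lists were above 0.20 (edgeR's quasi-likelihood test with Benjamini-Hochberg adjustment).

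Across the 16 mice the members rose and fell together in part. Of the 45 pairs of members, 35 had a positive Pearson r of log2 CPM and 10 a negative one, and 16, all positive, were under an adjusted p of 0.05 (permutation test with 100000 resamples, Benjamini-Hochberg over 45 pairs). By Spearman's rho, 8 pairs were, and without B6 mouse 8 the count by r was 10. With Line 4a mouse 1 left out it was 9 positive and 5 negative pairs. When both mice were left out, 20 pairs were positive and 25 negative, and 5 positive and 6 negative ones were under the threshold. The strongest pair was *Pde7b* and *Pde10a*, with r = 0.92 and rho = 0.91 (permutation p = 1e-05, the smallest these resamples can give, and 2e-05; adjusted p = 0.00045 and 0.00075). Without the 2 mice farthest from the *Pde7b* median, which were Line 4a mouse 1 and B6 mouse 8, r was 0.88, and it was 0.93 within lanes 5 and 6 and 0.90 within lanes 7 and 8.

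*Pde7b* and *Pde8b* had r = 0.80 and rho = 0.84 (permutation p = 0.00019 and 9e-05, adjusted p = 0.0036 and 0.00101), and r = 0.78 without the 2 farthest mice. *Pde1b* and *Pde10a* had r = 0.78 and rho = 0.86, with 0.72 without the 2 mice farthest from the *Pde1b* median, 0.69 within lanes 5 and 6 and 0.91 within lanes 7 and 8. *Pde1b* and *Pde2a* had r = 0.78 and rho = 0.74, with 0.73 without the 2 farthest mice, 0.84 within lanes 5 and 6 and 0.79 within lanes 7 and 8. The 16 pairs were all positive within both pairs of lanes, where r ran from 0.43 to 0.93 and from 0.39 to 0.97. All 16 stayed under an unadjusted permutation p of 0.05 after the genotype means were removed. The pairs were chosen by r in the same 16 mice, so neither check is independent of that choice. Both checks kept the mice that stood apart, which lay in different pairs of lanes. They therefore cannot tell whether a pair rests on those mice. *Pde1c* and *Pde7b* had r = 0.64 within lanes 5 and 6 and 0.88 within lanes 7 and 8, but -0.11 without both of those mice.

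Several pairs rested on the mice that stood apart. *Pde1c* and *Pde7b* had r = 0.72 but rho = 0.21 (permutation p = 0.437), and r was -0.11 without Line 4a mouse 1 and B6 mouse 8. *Pde1c* and *Pde10a* went from r = 0.62 to 0.00 without them, and *Pde4b* and *Pde7b* from r = 0.78 to 0.53. Of the 16 pairs, 9 stayed under an unadjusted permutation p of 0.05 without the 2 farthest mice, where 2 turned negative, and 7 did without Line 4a mouse 1 and B6 mouse 8. In the opposite direction, *Pde4d* and *Pde7b* had r = 0.33 with all mice and -0.76 without Line 4a mouse 1 and B6 mouse 8, and *Pde1a* and *Pde1b* had -0.33 and -0.67.

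**Figure D4:**
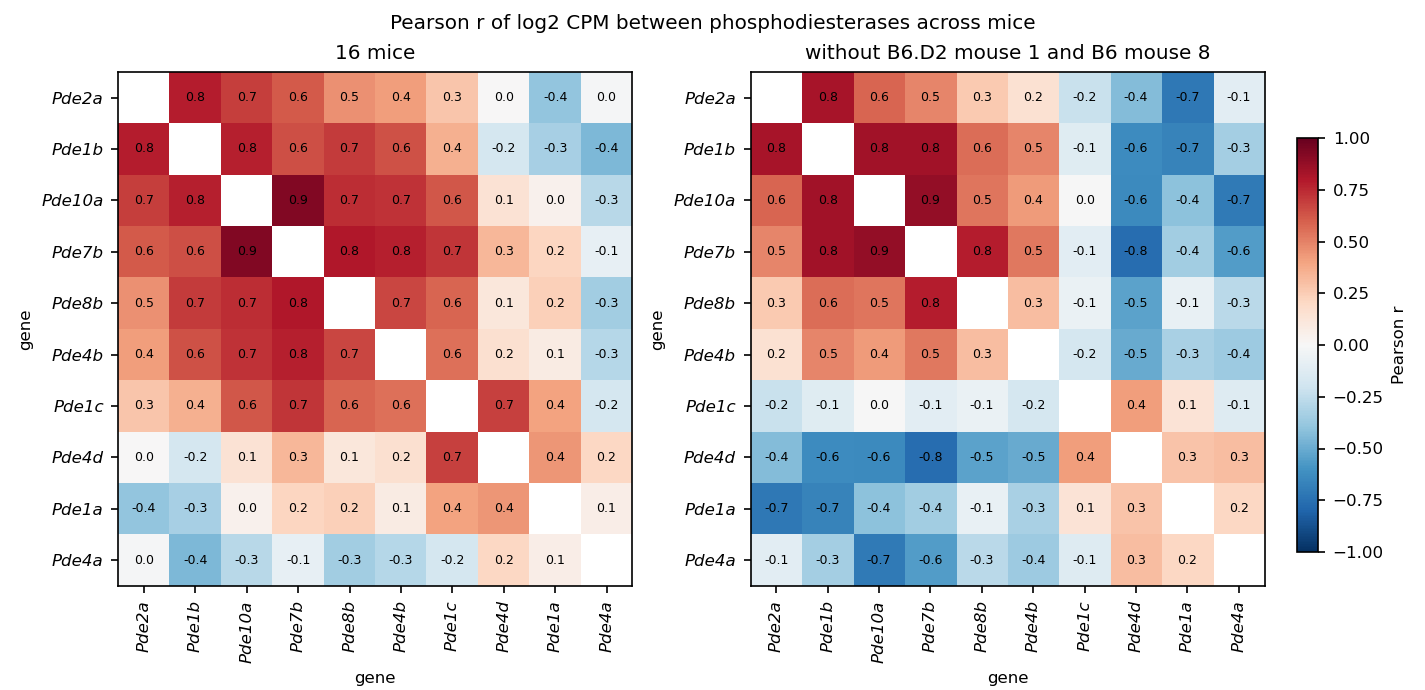
Pearson r of log2 CPM for each pair of phosphodiesterases, in all 16 mice (left) and without Line 4a (B6.D2) mouse 1 and B6 mouse 8 (right), from -1 in blue to 1 in red, with r printed in each cell. *Pde1b*, *Pde2a*, *Pde7b*, *Pde8b* and *Pde10a* stay positively related in both maps, while the correlations of *Pde1c* fall towards 0 and those of *Pde4d* and *Pde1a* with that group are more negative on the right.

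The members were also set against marker scores, the mean standardized log2 CPM of 17 striatal projection neuron markers and of 16 cortical glutamatergic markers in each mouse. Of 20 relations, 5 were under an adjusted p of 0.05 (permutation test, Benjamini-Hochberg over 20), and the count was 3 without B6 mouse 5, 2 without B6 mouse 8 and 8 without Line 4a mouse 1. *Pde1b* tracked the striatal score, with r = 0.93 and rho = 0.93 (permutation p = 1e-05 for both, the smallest these resamples can give, adjusted p = 0.0002 for r). Its r was 0.89 without the 2 mice farthest from the median score, 0.86 within lanes 5 and 6 and 0.98 within lanes 7 and 8. *Pde1a* tracked the cortical score instead, with r = 0.82 and rho = 0.77 (permutation p = 0.00014 and 0.00072, adjusted p = 0.0014 and 0.0036). Its r was 0.90 without the 2 farthest mice, 0.87 and 0.80 within the pairs of lanes, and 0.70 after the genotype means were removed. The striatal score gave r = -0.27 with *Pde1a*, and the cortical score gave r = -0.28 with *Pde1b*. They were -0.56 (permutation p = 0.0382) and -0.45 (permutation p = 0.107) without Line 4a mouse 1 and B6 mouse 8.

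*Pde10a* and *Pde7b* had r = 0.67 and 0.50 with the striatal score, but rho = 0.86 and 0.88. Without Line 4a mouse 1 and B6 mouse 8, r was 0.92 and 0.93. Without the 2 mice farthest from the median score, r was 0.52 for *Pde10a* and 0.26 for *Pde7b*. It was 0.48 and 0.20 within lanes 5 and 6, and 0.94 and 0.97 within lanes 7 and 8. In Line 4a mouse 1 both genes were at their lowest of all mice while the striatal score, at 0.15, was near the congenic median of 0.22. *Pde8b* had r = 0.72 and rho = 0.74 with the striatal score. Its r was 0.47 without the 2 mice farthest from the median score and 0.70 without Line 4a mouse 1 and B6 mouse 8. *Pde4a* was the only member with a negative relation under the threshold, with r = -0.69 and rho = -0.48. This rested on few mice, since r was -0.34 without the 2 farthest and -0.52 without Line 4a mouse 1 and B6 mouse 8. The striatal score ranged from -1.27 to 1.72 in B6 and from -0.53 to 0.36 in Line 4a, and 0 of the 17 markers behind it were under an unadjusted p of 0.05 between the genotypes by edgeR's quasi-likelihood and likelihood ratio tests or by DESeq2. Of them, 3 were higher in Line 4a without Line 4a mouse 1 and B6 mouse 8.

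**Figure D5:**
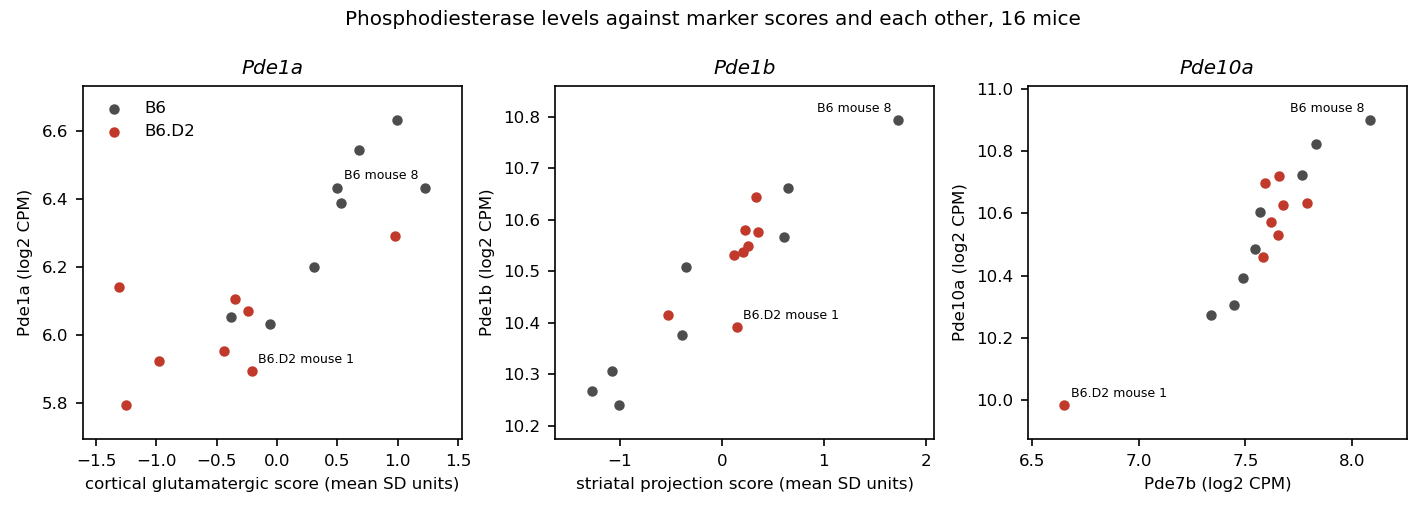
Log2 CPM of *Pde1a* against the cortical glutamatergic score, of *Pde1b* against the striatal projection score and of *Pde10a* against *Pde7b*, with 1 point per mouse for B6 (grey) and Line 4a (B6.D2, red) and the 2 libraries that stood apart named. The 3 relations have r of 0.82, 0.93 and 0.92, and Line 4a mouse 1 lies far below the other mice in *Pde7b* and *Pde10a*.

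Among the 10311 other genes with a mean of at least 10 CPM, those closest to the 3 members over the 16 mice differed for each. The 5 with the highest r to *Pde1b* were *Scn4b* (0.94), *Bcl11b* (0.93), *Drd2* (0.93), *Ankrd63* (0.93) and *Asic4* (0.92), of which *Bcl11b*, a transcription factor of striatal projection neurons, and *Drd2*, a dopamine receptor, were on the striatal marker list. The 5 closest to *Pde10a* were *Rps6ka5* (0.95), *9430020K01Rik* (0.94), *Kdm3a* (0.94), *Cdk19* (0.93) and *Anks1b* (0.93), none of them on the striatal or cortical list. Without Line 4a mouse 1 and B6 mouse 8 these were between 0.86 and 0.91. The 5 closest to *Pde1a* were *Nrg3* (0.91), *Syn2* (0.91), *Pgm2l1* (0.91), *Lancl2* (0.90) and *Mapk10* (0.90). These 5 were themselves lower in Line 4a, with unadjusted p from 8.6e-05 to 0.0236 (edgeR's quasi-likelihood test). Of all genes, 5.14% were lower at an unadjusted p under 0.05. After the genotype means were removed, their r to *Pde1a* was between 0.82 and 0.88. The r of all 15 genes are Pearson r over mice that share a dissection, given as a description.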

How the data were processed

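Per the labels and the study's methods, total RNA was made into stranded, oligo-dT primed libraries of 50-base single-end reads. The authors aligned the reads with TopHat (bowtie2 2.2.2) to mm10 and counted them per gene with HTSeq 0.6.1p1 in union mode without strand. Reads with more than 1 alignment were left out of the deposited counts, which are raw whole numbers for each mouse and lane. The authors' tables of their own comparison (fold changes, p-values and FDR) were not used.

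Lane files were summed per mouse (B6 mouse 7 had 1 lane file), and the lanes of the other 15 mice agreed within sampling noise. Genes were filtered with filterByExpr, scaled with TMM and tested with edgeR 4.0.16 (quasi-likelihood, Benjamini-Hochberg over all genes, R 4.3.3), a procedure tested on simulated data. At an adjusted p under 0.05 it recovered 32% of simulated log2 differences of 0.3, 74% of those of 0.585 and 98.0% of those of 1. Differences as small as those of the members can therefore be missed. SE is the fold change over the root of F. Log2 CPM used a prior count of 0.5. Permutation tests used numpy 2.4.6. The members, the gene lists and the *Pde1a* to *Pde1b* ratio were chosen with earlier results of these data known. Text names all members, pathway genes under an unadjusted p of 0.05, the most abundant gene of each list and the 5 closest genes, except for genes that are not reported here. Home cage, a term in the study's model, is not in the labels. The alternatives tried were RLE and upper-quartile scaling, other filters on low counts, DESeq2 1.42.0, the likelihood ratio test, the second lane alone, lane pairs, covariates and mice left out. Depth was 19032826 to 33748353 reads, so the spread between mice sets the precision.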

Additional observations from a re-analysis of the deposited data

Results flagged for a closer look

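Samples were searched in 100 groups of 8 mice, over the members, their scores and ratio and the other genes named, for a highest or lowest mouse whose gap to its nearest neighbour was large relative to the range of its genotype, and 18 such values were found, from 4 mice. Chance gives about 1 in 20 groups, but the groups share mice and are not independent. Line 4a mouse 1 gave 13 of the 18, and 4 of those were for genes named for their likeness to *Pde10a*. Line 4a mouse 1 was the lowest congenic for *Pde7b* at 101 CPM, with the next at 192 CPM, and for *Pde10a* at 1013 CPM, with the next at 1408 CPM. It was also the lowest for *Adcy5* at 737 CPM, *Akap11* at 251 CPM, *Akap6* at 142 CPM, *Prkacb* at 522 CPM, *Rps6ka5* at 37.3 CPM, *9430020K01Rik* at 245 CPM, *Kdm3a* at 65.9 CPM and *Anks1b* at 388 CPM. The same library was the highest congenic for *Pde6d* at 55.6 CPM, *Sst* at 261 CPM and *Ppp1r1b*, which encodes DARPP-32 in striatal projection neurons, at 1934 CPM.

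B6 mouse 8 was the highest B6 mouse for *Pde1c* at 38.7 CPM, with the next at 32.0 CPM, and for *Ankrd63* at 177 CPM, and the lowest for *Arrb2* at 27.5 CPM. B6 mouse 2 was the lowest B6 mouse for *Mbp*, a myelin gene, at 4230.5 CPM. Line 4a mouse 6 had the lowest striatal score among the congenics, -0.53, with the next at 0.12. Line 4a mouse 1 and B6 mouse 8 are the libraries with the lowest shares of their count totals outside annotated exons, and the part of this in their values was not tested.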

How the results depend on the processing

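At an FDR of 20% 3 genes passed, and DESeq2 called 242, the likelihood ratio test 186, lanes 5 and 6 alone 1, lanes 7 and 8 alone 0, the cortical covariate 0, the striatal covariate 14, and the fit without Line 4a mouse 1 and B6 mouse 8 14. Leaving out each mouse gave 1 to 114. Under an unadjusted p of 0.05, lanes 5 and 6 alone gave 500 genes and the cortical covariate 445, against 1559. Members under that p numbered 1 with the second lane alone, in either pair of lanes and with the cortical covariate, and 1 to 2 with each mouse left out. Members at an FDR of 20% numbered 1 by DESeq2 and the likelihood ratio test, and 0 to 1 with each mouse left out. The striatal covariate and the fits without both mice were chosen after seeing the data.

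*Pde1a* kept its direction in all 30 alternatives and passed 0.05 in 29, the exception being the cortical covariate. Differences near 0 changed sign. For lanes 5 and 6 alone the log2 fold change was -0.052 for *Pde4a*, 0.00258 for *Pde4b*, 0.032 for *Pde8b* and 0.00451 for *Pde10a*, and for lanes 7 and 8 alone it was -0.028 for *Pde1b*. Without Line 4a mouse 1 and B6 mouse 8 it was -0.012 for *Pde4a*, 0.032 for *Pde4b*, 0.074 for *Pde7b*, 0.042 for *Pde8b* and 0.077 for *Pde10a*. *Pde4a* was at -0.000452 with no filter, -0.000316 by DESeq2 and -0.00714 with the second lane, *Pde4b* at 0.00181 with upper-quartile scaling and *Pde8b* at 0.00746 with the cortical covariate. With each mouse left out, values ran from -0.032 to 0.023 for *Pde4a*, -0.024 to 0.011 for *Pde4b*, -0.13 to 0.00145 for *Pde7b*, -0.044 to 0.018 for *Pde8b* and -0.076 to 0.026 for *Pde10a*. For genes outside the members, *Adcy5* was at 0.11 and *Rapgef4* at 0.016 without Line 4a mouse 1 and B6 mouse 8, *Pde6d* at -0.022 for lanes 7 and 8 alone, and *Adcy5* ran from -0.040 to 0.067 with each mouse left out. The causes were not tested.

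Correlated pairs numbered 1 for lanes 5 and 6 alone, 6 without the 2 farthest mice, and 10 to 19 with each mouse left out. Relations with the scores numbered 0, 2 and 2 to 8 in turn. Without the 2 farthest mice r was -0.11 for *Pde1c* and *Pde7b*, -0.00329 for *Pde1c* and *Pde10a*, -0.23 for *Pde4d* and *Pde7b* and 0.066 for *Pde1a* and *Pde1b*. Without Line 4a mouse 1 and B6 mouse 8 the first 3 were -0.11, -0.00329 and -0.76, and r of *Pde4d* and *Pde7b* ran from -0.32 to 0.51 with each mouse left out. The *Pde1a* to *Pde1b* ratio differed by -0.53 in lanes 5 and 6 and -0.23 in lanes 7 and 8, above 0.05 in both.

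The genotypes share mouse numbers 1 to 8, but same-numbered mice deviated together with r from -0.12 to 0.36, and 2 of 8 correlated best with their own number, so the numbers were not taken as pairs. With the replicate block, 1377 genes and 2 members were under 0.05, 3 genes and 0 members passed an FDR of 20%, no member changed its side of 0.05, and the ratio differed by -0.38 (exact sign-flip permutation p = 0.0312).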
